A study of Homo sapiens with 6 samples.

Results

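The 77 genes described here encode the proteins of the cytosolic ribosome, 46 of its large subunit and 31 of its small subunit. They were chosen by symbol, as protein-coding genes named RPL, RPS or RPLP with a number and at most a final A or X, plus RPSA, out of 62703 gene identifiers in the deposited tables. FAU and RACK1, ribosomal proteins that the rule leaves out, are given apart. All 77 had enough counts to be tested, and 73 lie on autosomes and 4 on chromosome X (RPL10, RPL36A, RPL39 and RPS4X). The RNA came from H929, an established human plasma cell line grown from multiple myeloma, labelled wild type. In 3 libraries the cells had been given 1 µM Mi-2, a small molecule known as an inhibitor of the MALT1 protease, and in the other 3 the solvent DMSO, both for 24 h. The titles number the libraries 1 to 3 within each group but mark every one as biological replicate 1, and whether each is a culture of its own is not stated. All p-values below therefore cover the spread among these libraries alone, which may be technical. One cell line, one dose and one time were sampled, and RNA was measured, not protein.

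Each ribosome carries 1 copy of nearly every one of these proteins, with the P1 and P2 proteins of the stalk as the known exception, so a growing cell makes them in matched amounts. Their messages belong to the most abundant of any cell. In plasma cells, which secrete antibody, ribosomes on the endoplasmic reticulum are plentiful. The messages of ribosomal proteins are the classic members of the TOP class: they begin with a C followed by an unbroken run of C and T, the terminal oligopyrimidine tract. Through it their translation is controlled by mTOR and the RNA-binding protein LARP1, with little change in the amount of message. Transcription of ribosomal protein genes and of ribosome assembly factors is also known to respond to MYC.

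The start of the gene carries the feature that marks the family, so the windows of 10 members are shown. Each is 30 bases long, 15 before the annotated start and 15 from it, from RefSeq on GRCh38.p14, written 5′ to 3′ along the gene. Capitals mark the run of C and T that passes through the first base, as far as it lies inside the window. The first 7 hold a run of at least 9, among them RPS27, the highest member in TPM though not in counts. The last 3, RPS29, RPL10 and RPL6, hold a run of at most 2 at the annotated start, and include the members with the highest and lowest fold change. Only the first listed RefSeq start of each gene was read. Whether these 3 genes have a longer run at another start was not tested.
RPS27, chr1:153990747-153990776, plus strand: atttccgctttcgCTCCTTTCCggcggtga
RPL39, chrX:119791616-119791645, minus strand: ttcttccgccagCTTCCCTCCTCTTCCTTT
RPL41, chr12:56116618-56116647, plus strand: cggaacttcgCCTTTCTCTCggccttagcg
RPLP0, chr12:120201097-120201126, minus strand: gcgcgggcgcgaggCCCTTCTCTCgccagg
RPLP1, chr15:69452803-69452832, plus strand: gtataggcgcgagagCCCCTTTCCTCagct
RPS6, chr9:19380222-19380251, minus strand: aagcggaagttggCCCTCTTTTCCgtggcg
RPS14, chr5:150449725-150449754, minus strand: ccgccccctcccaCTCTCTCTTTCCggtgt
RPS29, chr14:49598696-49598725, minus strand: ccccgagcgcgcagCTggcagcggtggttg
RPL10, chrX:154398050-154398079, plus strand: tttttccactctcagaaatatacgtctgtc
RPL6, chr12:112411428-112411457, minus strand: tatttgtatcctcagTgaatcagaaccaga

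A RefSeq start was found for 62 of the 77 members. In 44 of these 62 (71.0%) a run of 5 or more C or T passed through the first base, against 9.80% of 27305 RefSeq promoters of all genes. The first base was C in 46 members (74.2%), against 14.99% of all promoters. Over the 300 bases around the start, searched on both strands, the YY1 core AAGATGGC was present in 6 members (9.68%) and 3.03% of all promoters. The ETS core CCGGAAGT was present in 9 members (14.5%) and 4.44% of all promoters. A TATA box, searched as TATAAA, was present in 5 members (8.06%) and 11.95% of all, and the E box CACGTG in 3 members (4.84%) and 7.43% of all. These are matches of letters only. The median log2 fold change, Mi-2 against DMSO, was 0.02 over the 44 members with a run of 5 or more and 0.00 over the 18 without one at the start used.

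Libraries held 19980700 to 23756700 estimated counts. The 10 plasma cell and myeloma markers were all detected, with means of 230.4 to 4742 CPM (counts scaled to library size by TMM). With Mi-2, edgeR called 2 of these 10 higher and 2 lower, where it called 5.02% of all tested genes higher and 6.03% lower. Of markers of other cells, CD3D, CD8A, COL1A2, COL3A1, PF4 and PPBP were at 0 in every library. The summed level of the 7 T and NK cell markers was 26.8 to 33.2 CPM with DMSO and 39.5 to 45.5 CPM with Mi-2, with CD3E the only one above 1 CPM. That of 8 stromal and epithelial markers was 64.9 to 79.4 CPM with DMSO and 90.9 to 107.2 CPM with Mi-2, and 5 of the 8 were under 1 CPM. Of these markers of other cells CD3E, KRT18 and PECAM1 were called higher and none lower. CD3E was the only T and NK cell marker with enough counts to be tested, and KRT18 and PECAM1 were 2 of 3 tested stromal and epithelial markers. The part of these levels in the results below was not tested. In bulk RNA, fewer cells of a type and less RNA per cell cannot be told apart.

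Ribosomal protein genes took up 6.66, 6.89 and 8.001% of counts with DMSO, library by library, against 6.62, 7.30 and 8.06% with Mi-2. The group means were 7.18% ± 0.72 (SD, n = 3) and 7.33% ± 0.72 (SD, n = 3), and the values overlapped across their whole range. In TPM, which corrects for transcript length, the shares were 21.4, 21.7 and 24.2% with DMSO and 21.4, 22.8 and 24.0% with Mi-2. Large-subunit genes alone held 4.32, 4.46 and 5.20% of counts with DMSO and 4.31, 4.74 and 5.21% with Mi-2. Small-subunit genes held 2.34, 2.43 and 2.80% with DMSO and 2.31, 2.56 and 2.86% with Mi-2. Both subunits thus followed the same order of libraries, and the third library of each group held the most. The lowest and highest DMSO library differed by more than the 2 group means.

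The library pattern ran through nearly all members. In the DMSO group, library 3 had the highest CPM for 72 of 77 members (93.5%), and it was highest for 34.1% of all tested genes. Library 1 of the Mi-2 group had the lowest CPM for 73 of 77 members (94.8%), and it was lowest for 34.7% of all tested genes. The median deviation of the 77 members from their own mean over the 6 libraries was −0.13, −0.07 and 0.15 on the log2 scale in the DMSO libraries. In the Mi-2 libraries it was −0.14, 0.05 and 0.12. EEF1A1, a translation elongation factor with a TOP message, followed the same order within each group, with 1.65, 1.80 and 2.05% of counts with DMSO and 1.68, 1.96 and 2.08% with Mi-2. What sets the libraries apart was not tested.

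**Figure D1:**
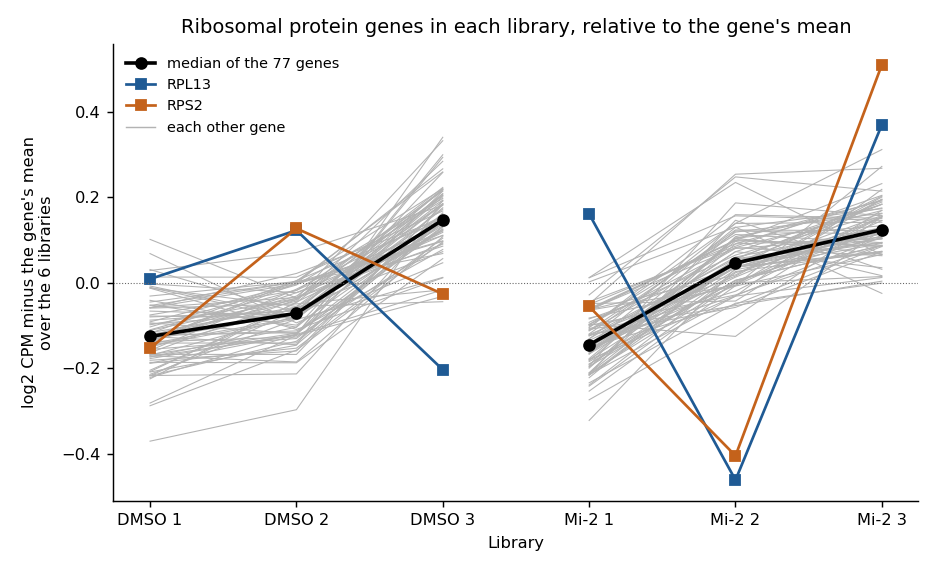
Log2 CPM of each of the 77 ribosomal protein genes in each library, as the difference from that gene's mean over the 6 libraries; lines only join the values of one gene within a group. The median (black) lies highest in DMSO library 3 and Mi-2 library 3 and lowest in Mi-2 library 1 and DMSO library 1, while RPL13 and RPS2 depart from it in DMSO library 3 and Mi-2 library 2.

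No ribosomal protein gene passed the test between Mi-2 and DMSO. By the quasi-likelihood F test of edgeR with Benjamini-Hochberg adjustment, 0 of 77 were called higher and 0 lower at an adjusted p under 0.05, where 11.0% of all 16082 tested genes were called, 5.02% higher and 6.03% lower. The unadjusted p of edgeR was under 0.05 for 2 of 77, RPS27 (0.0248) and RPL39 (0.0463), against 27.0% of all tested genes. Calls were not scarce among genes of like abundance: of 635 genes whose mean log2 CPM was 8 or more, 137 (21.6%) were called, and none of the 74 ribosomal protein genes among them. DESeq2 called 1 of 77, RPS27 (adjusted p = 0.0490), with 16% of its genes called, and limma-voom called 0, with 11.0% called. With both libraries numbered 3 left out, edgeR called 0 of 77, with 4.42% of all genes called.

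Fold changes of the members were small and of both signs. Their median log2 fold change was 0.01, beside 0.00 over all tested genes, with 43 members above 0 and 34 below. Their quartiles were −0.03 and 0.08, where those of all genes were −0.22 and 0.23. In the large subunit the median was 0.01 with 24 of 46 above 0, and in the small subunit 0.02 with 19 of 31 above 0. Fold changes ran from 0.879 for RPL6 to 1.23 for RPS29, and 67 of 77 were within 1.1-fold of no change. The median standard error was 0.11 on the log2 scale. The 95% confidence interval lay within 1.5-fold either way for 76 members, RPS29 being the exception, and within 1.2-fold for 12. In 72 of 77 members the range among the 3 DMSO libraries exceeded the change with Mi-2, and the share of all genes for which it did was not counted. The median DMSO range was 0.29 on the log2 scale for members and 0.31 for all tested genes. The median size of the change was 0.06 for members and 0.22 for all tested genes. The median change came to −0.05 without Mi-2 library 3 and to 0.09 without DMSO library 3, and was 0.06 without either library numbered 3, so its sign was set by single libraries.

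**Figure D2:**
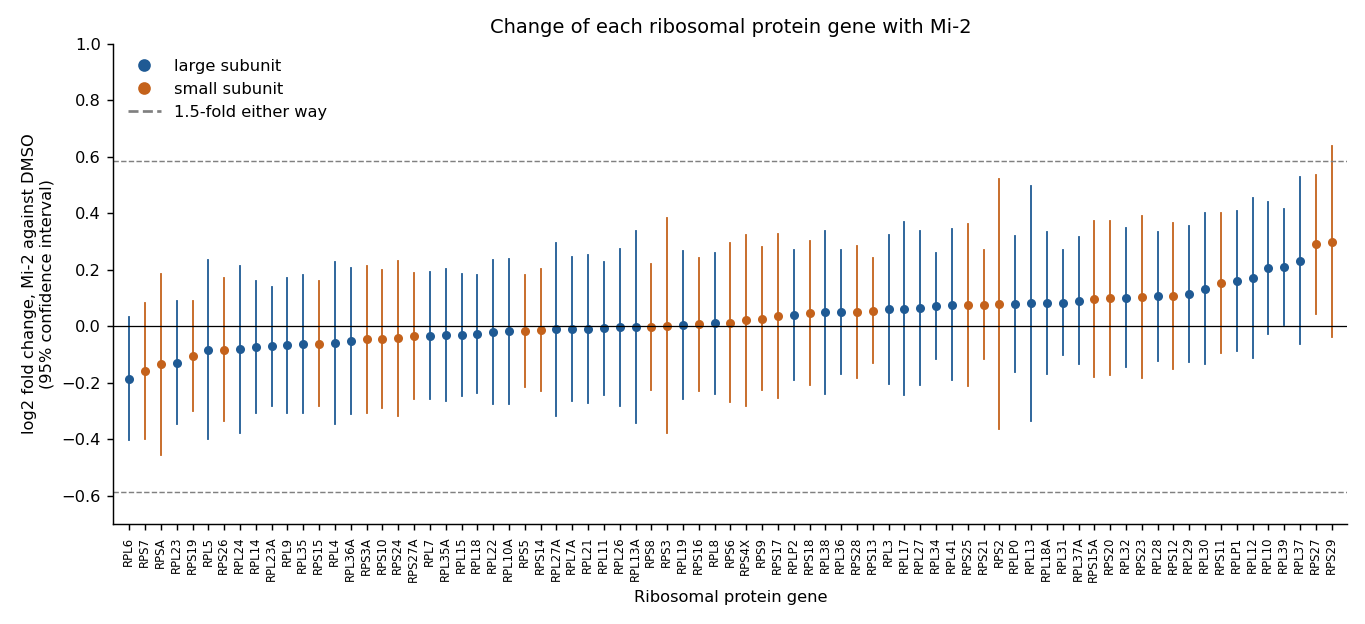
Log2 fold change of each ribosomal protein gene, Mi-2 against DMSO (edgeR), with its 95% confidence interval, ordered by size and coloured by subunit; dashed lines mark 1.5-fold either way. All values lie between −0.19 (RPL6) and 0.30 (RPS29), and RPS29 alone has an interval that crosses a dashed line.

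Only 3 members had CPM ranges that did not overlap between the groups (3.90%), where 32.3% of all tested genes had such ranges, 15.7% with Mi-2 higher and 16.6% with Mi-2 lower. RPS27, a zinc-finger protein of the small subunit, was at 1390.46, 1552 and 1653 CPM in the DMSO libraries against 1657, 2007 and 1961 CPM in those given Mi-2. Its log2 fold change was 0.29 ± 0.11 (SE), adjusted p = 0.120, with a 95% interval of the fold from 1.03 to 1.45. All Mi-2 values were above all DMSO values, though DMSO library 3 nearly reached Mi-2 library 1. RPL39, which lines the exit tunnel of the large subunit, was at 261, 271 and 292 CPM in the DMSO libraries against 298, 347 and 309 CPM in those given Mi-2 (log2 fold change 0.21 ± 0.09 (SE), adjusted p = 0.176). RPL6, a large-subunit protein, was at 1136, 1169.92 and 1263 CPM in the DMSO libraries against 947, 1078 and 1113 CPM in those given Mi-2 (log2 fold change −0.19 ± 0.10 (SE), adjusted p = 0.254). It was the only member whose Mi-2 values all lay below its DMSO values.

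The other members at the ends of the order overlapped between groups. RPS29, a small zinc-binding protein of the small subunit, was at 76.4, 80.4 and 113 CPM in the DMSO libraries against 95.4, 118 and 119 CPM in those given Mi-2 (log2 fold change 0.30 ± 0.15 (SE), adjusted p = 0.238). DMSO libraries 1 and 2 were low and DMSO library 3 stood among the Mi-2 values, which gave it the widest DMSO range of any member, 0.56 on the log2 scale. RPL37, a large-subunit protein that binds ribosomal RNA, was at 708, 775 and 924 CPM in the DMSO libraries against 805, 952 and 1073 CPM in those given Mi-2 (log2 fold change 0.23 ± 0.13 (SE), adjusted p = 0.291). RPL10, which joins the large subunit late, in the cytoplasm, and is mutated in some T-cell leukaemias, was at 2511, 2509 and 2971 CPM in the DMSO libraries against 2879.70, 3184 and 3161 CPM in those given Mi-2 (log2 fold change 0.21 ± 0.10 (SE), adjusted p = 0.238). Of its Mi-2 libraries 1 fell below DMSO library 3, and 2 lay above all DMSO libraries. At the lower end, RPS7, known to bind MDM2 when free of the ribosome, was at 530.22, 543 and 648 CPM with DMSO against 467, 530.14 and 546 with Mi-2 (log2 fold change −0.16 ± 0.11 (SE), adjusted p = 0.386). RPSA, also known as the laminin receptor precursor, was at 1204, 1256 and 1622 CPM with DMSO against 1066, 1219 and 1434 with Mi-2 (log2 fold change −0.13 ± 0.14 (SE), adjusted p = 0.598). The RPS7 and RPSA values of the groups overlapped, with DMSO library 3 the highest for each.

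Proteins of the stalk, which recruits the translation factors, are RPLP0 as its base and RPLP1 and RPLP2 as its arms. RPLP0 was at 2944, 3136 and 3605 CPM with DMSO against 3170.29, 3549.64 and 3515 with Mi-2, and RPLP1 at 776, 768 and 941 CPM with DMSO against 847, 927 and 1006 with Mi-2. RPLP2 was at 450.28, 483 and 534 CPM with DMSO against 452, 516 and 541 with Mi-2. The groups overlapped for all 3, with log2 fold changes of 0.08 ± 0.11, 0.16 ± 0.11 and 0.04 ± 0.10 (SE). RPL5 and RPL11 form, with 5S ribosomal RNA, the particle that can bind and restrain MDM2. RPL5 was at 415, 456 and 549 CPM with DMSO against 365, 467 and 509 with Mi-2, and RPL11 at 829, 884 and 984 CPM with DMSO against 800.41, 928.95 and 955 with Mi-2. Neither differed beyond its spread, with log2 fold changes of −0.08 ± 0.14 and −0.01 ± 0.11 (SE). RPL3, which reaches to the peptidyl transferase centre, was at 2299, 2309 and 2771 CPM with DMSO against 2302, 2531 and 2867 with Mi-2. RPL22, known to bind viral and cellular RNAs, was at 438, 477 and 526 CPM with DMSO against 409, 526 and 485 with Mi-2, and the highest library of either group was at the same level. The 8 proteins around the mouth of the exit tunnel, RPL17, RPL19, RPL22, RPL23A, RPL26, RPL31, RPL35 and RPL39, had a median log2 fold change of 0.00, 4 of them above 0.

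Members of the small subunit with known regulatory or disease roles were as level. RPS6, the substrate of S6 kinase downstream of mTOR, was at 1376, 1519 and 1711 CPM with DMSO against 1322, 1585 and 1744 with Mi-2 (log2 fold change 0.01 ± 0.13 (SE), adjusted p = 0.962). RPS3, at the entry of the messenger channel, was at 866, 904 and 1267 CPM with DMSO against 839, 996 and 1208 with Mi-2 (log2 fold change 0.00 ± 0.17 (SE), adjusted p = 0.994). In both groups RPS3 was highest in library 3, and its DMSO range of 0.55 on the log2 scale was second to RPS29. RPS19, the gene most often mutated in Diamond-Blackfan anaemia, was at 897, 816 and 890.03 CPM with DMSO against 775, 806 and 838 with Mi-2 (log2 fold change −0.11 ± 0.09 (SE), adjusted p = 0.481). RPS4X was at 859.54, 961 and 1155 CPM with DMSO against 857, 1032 and 1132 with Mi-2, and RPS27A, made as a fusion with ubiquitin, at 339, 344 and 389 CPM with DMSO against 314, 377 and 357 with Mi-2. Both overlapped between groups. The narrowest DMSO ranges, both 0.04 on the log2 scale, were those of RPS21 with 220.29, 214 and 215 CPM with DMSO against 208, 240.28 and 237 with Mi-2 and of RPL31 with 329.77, 332 and 339.68 CPM with DMSO against 329, 368 and 364 with Mi-2. For these 2 the Mi-2 range was wider, 0.21 and 0.16, and still reached down to the DMSO values.

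Levels of different genes are compared here in TPM, which is per length. The median member was at 2109 to 2425 TPM by library, 66 to 68 members exceeded 1000 TPM, and members made up 56 to 59 of the 100 most abundant genes. RPS27 was the highest member in every library, at 22409, 21849 and 23829 TPM with DMSO and 23796, 24789 and 24650.02 TPM with Mi-2, and ranked 3 among all genes in each. Next came RPL41, a very short peptide of the large subunit, at 8029, 7609.52 and 9313 TPM with DMSO and 7864, 8118 and 8956 TPM with Mi-2, and RPL10, at 7093, 7083 and 7674 TPM with DMSO and 8031, 8737 and 8360.01 TPM with Mi-2. The levels of these 2 genes overlapped, and their order was reversed in Mi-2 libraries 1 and 2. RPL10 itself had more TPM in every Mi-2 library than in any DMSO library, while its CPM ranges overlapped. RPS25, a small-subunit protein needed by several viral entry sites for ribosomes, followed at 6018, 6110.20 and 7645 TPM with DMSO and 6257, 6774 and 6817 TPM with Mi-2. At the bottom was RPL22, at 325, 349 and 356 TPM with DMSO and 315, 407 and 353 TPM with Mi-2. RPS14, the small-subunit gene lost in 5q- syndrome, was at 493, 533 and 521 TPM with DMSO and 580.05, 739 and 692 TPM with Mi-2. RPL5 and RPL36A lay next, at means over the 6 libraries of 715 and 768 TPM, with ranges that overlapped. A pseudogene row of RPL36A, RPL36AP37, was at a mean of 3129 TPM, so the place of RPL36A depends on how reads were divided between these rows. The means over the 6 libraries were 23554 TPM for RPS27 and 351 TPM for RPL22, proteins of which a ribosome holds equal numbers. By counts this gap was much smaller, with RPS27 at a mean of 1703 CPM, below RPLP0 in every library. TPM divides by the assigned length, which was among the shortest of the family for RPS27 and among the longest for RPL22. How much of the gap in TPM is a gap in message was not tested.

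**Figure D3:**
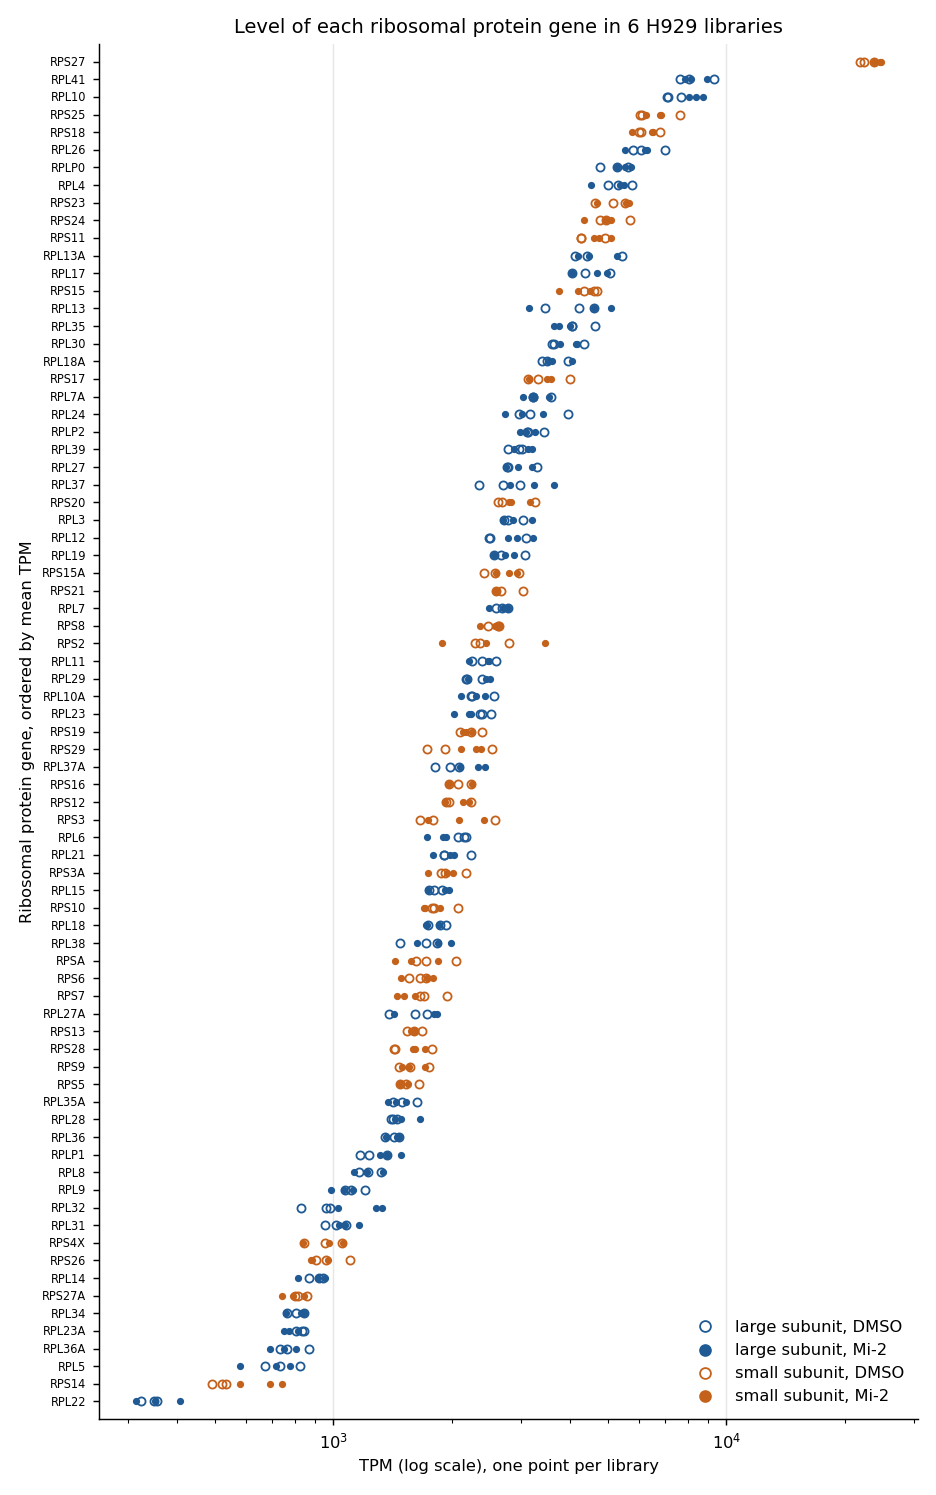
TPM of each of the 77 ribosomal protein genes on a log axis, 1 point per library, open for DMSO and filled for Mi-2, ordered by the mean. RPS27 stands apart at the top with 21849 to 24789 TPM, RPL22 is lowest with 315 to 407 TPM, and open and filled points overlap for nearly all genes, RPS14 and RPL32 being among those with filled points to the right.

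Counts and TPM gave different changes for a few members, which bears on the values above. The counts that correspond to 1 TPM of a gene follow the length that the estimation assigned to it in that library. Relative to other genes, this ratio moved by over 0.1 on the log2 scale between groups for 8 members, upward for 4 and downward for 4, and did so for 13.9% of 6652 genes compared. It was higher with Mi-2 for RPS27, RPS29, RPS21 and RPL39, the 4 members with the shortest assigned lengths, by 0.18, 0.16, 0.16 and 0.13. For RPS27, which has 1 protein-coding transcript in GENCODE 29, the ratio relative to the DMSO mean was −0.10, 0.13 and −0.03 with DMSO and 0.08, 0.25 and 0.21 with Mi-2. It thus differed between DMSO libraries too. On the log2(TPM + 1) scale the difference of RPS27 was 0.11 (limma, adjusted p = 0.460) in place of 0.29 by counts, and that of RPL39 was 0.07 (adjusted p = 0.636) in place of 0.21. RPS29 came to 0.15 in place of 0.30, and RPS21 to −0.09 in place of 0.08. Across the 77 members, the rank correlation of assigned length with the change was −0.36 by counts and 0.00 by TPM, as a description over genes that share the 6 libraries. The part of the assigned length in the changes by counts was not tested beyond these values.

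RPS14, RPL32, RPL37A and RPL27A went the other way. The RPL27A ratio of counts to TPM, relative to the DMSO mean, was 0.03, −0.21 and 0.18 with DMSO and 0.01, −0.20 and −0.11 with Mi-2. Its Mi-2 values thus lay within the DMSO range. RPS14 had more TPM in every Mi-2 library than in any DMSO library, a difference of 0.37 on the log2(TPM + 1) scale (limma, adjusted p = 0.0887). By counts it was at 719.74, 743 and 779 CPM with DMSO against 662, 761 and 798 with Mi-2, with a log2 fold change of −0.01 ± 0.10 (SE), adjusted p = 0.948. Its ratio of counts to TPM, relative to the DMSO mean, was 0.03, −0.00 and −0.03 with DMSO and −0.32, −0.51 and −0.36 with Mi-2. GENCODE 29 lists 5 protein-coding transcripts of RPS14, of 569 to 2314 bases. RPL32, with 7 such transcripts of 439 to 2117 bases, was at 829.77, 979 and 961 TPM with DMSO and 1031, 1327 and 1285 TPM with Mi-2, a difference of 0.39 (adjusted p = 0.108), and by counts its log2 fold change was 0.10 ± 0.11 (SE), adjusted p = 0.606. RPL37A differed by 0.22 in TPM and 0.09 by counts. No member passed the threshold on the TPM scale, where 4.36% of genes did. Over all 77, the median on that scale was 0.00 with 38 above 0, and 13 members had opposite signs on the 2 scales.

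**Figure D4:**
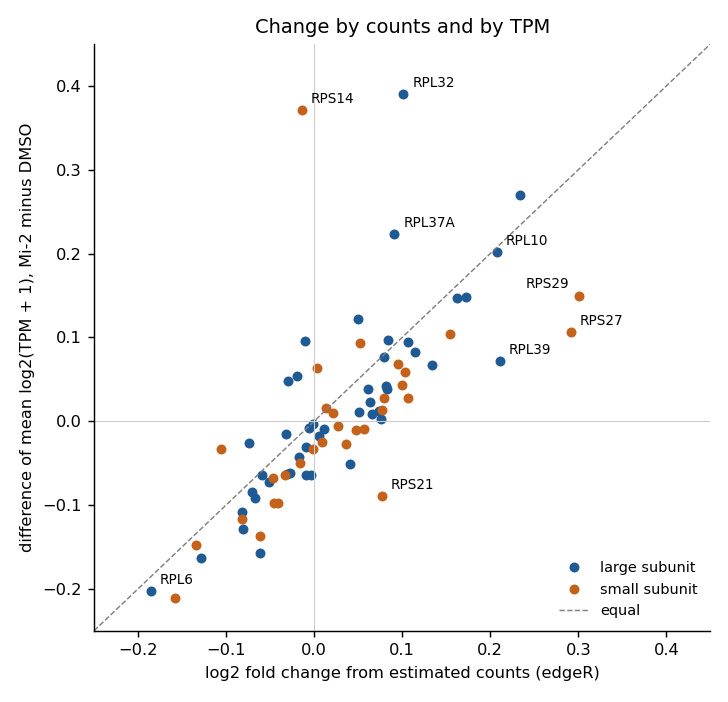
Each point is 1 ribosomal protein gene, with its log2 fold change from estimated counts (edgeR) on the x axis and its difference of mean log2(TPM + 1) between Mi-2 and DMSO on the y axis; the dashed line marks equal values. RPS14 (−0.01 by counts, 0.37 by TPM) and RPL32 (0.10 and 0.39) lie far above the line, and RPS27 (0.29 and 0.11), RPS29 and RPL39 lie below it.

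Among members, RPL13 and RPS2, both on chromosome 16, stood apart from the common library pattern and were singled out after their values were seen. RPL13, a large-subunit protein, was at 1368, 1481 and 1181 CPM in the DMSO libraries against 1520.25, 987 and 1757 CPM in those given Mi-2. RPS2, near the decoding end of the small subunit, was at 1313, 1594 and 1434 CPM in the DMSO libraries against 1405, 1103 and 2079 CPM in those given Mi-2. Both were low in Mi-2 library 2 and high in Mi-2 library 3, whereas the median member was only slightly higher in the latter. After the median member of each library was taken out, their values still spanned 0.81 and 0.84 on the log2 scale, the next gene being RPS29 with 0.45. RPL13 was also lowest of its group in DMSO library 3, the DMSO library with the highest share of ribosomal protein counts. Their log2 fold changes had the largest standard errors of the family, 0.08 ± 0.19 and 0.08 ± 0.20. With Mi-2 library 2 left out, RPL13 had the lowest adjusted p of all members, 0.212.

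By position and structure of the genes, medians lay close to each other. The 12 members on chromosome 19 had a median log2 fold change of 0.02 and the 6 on chromosome 17 a median of 0.00. The 4 on chromosome X had a median of 0.11, to which RPL10 and RPL39 contributed 0.21 each. In 28 members at least 1 snoRNA gene lies inside the gene, since many introns of ribosomal protein genes encode these guides of rRNA modification. Their median was 0.06, with 17 of 28 above 0, and that of the 49 without was 0.01, with 26 of 49 above 0. Across members the rank correlation of log2 fold change was 0.11 with GC content and 0.06 with mean level, as descriptions over genes measured in the same libraries.

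Neither FAU nor RACK1 was called by edgeR or DESeq2. FAU, made as a fusion with a ubiquitin-like protein, was at 268, 251 and 265 CPM with DMSO against 284, 296 and 276 with Mi-2 (log2 fold change 0.13 ± 0.08 (SE), adjusted p = 0.342). Its groups did not overlap. RACK1, a scaffold on the small subunit, was at 1546, 1688 and 2073 CPM with DMSO against 1456, 1669 and 1965 with Mi-2, and its groups overlapped. Of 8 paralogs of ribosomal proteins, RPL3L and RPL10L were too low to test, and of the other 6 none was called by edgeR. RPL7L1, an assembly factor rather than a ribosomal protein despite its name, was at 228, 234 and 246 CPM with DMSO against 188, 209.62 and 194 with Mi-2 (log2 fold change −0.26 ± 0.08 (SE), adjusted p = 0.0747). It was the only paralog with an adjusted p under 0.1, and DESeq2 called it lower (adjusted p = 0.0348). RPL22L1, the paralog of RPL22, was at 22, 26.4 and 22.9 CPM with DMSO against 15.7, 22.5 and 17.9 with Mi-2 (log2 fold change −0.34 ± 0.15 (SE), adjusted p = 0.166). RPL39L was at 4.72 to 9.50 CPM, against 261 to 347 CPM for RPL39, and RPS27L at 37.5 to 48.5 CPM. The log2 fold changes of RPL26L1, RPL36AL and RPS27L were −0.16, 0.16 and 0.16.

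Of 22 other genes with TOP messages, mostly of translation, 2 were called higher and 1 lower, with a median log2 fold change of −0.03. That is 13.6% called, against 11.0% of all genes, and 9.09% called higher, against 5.02%. EEF1A1 had a log2 fold change of 0.06 ± 0.13 (SE), adjusted p = 0.810, and EEF2, which moves the ribosome along the message, one of 0.04 ± 0.13 (SE), adjusted p = 0.870. NACA and BTF3, the 2 subunits of the nascent chain complex at the exit tunnel, had log2 fold changes of −0.01 ± 0.09 and −0.09 ± 0.11, neither called. TPT1, the translationally controlled tumour protein, was at 819, 851 and 867 CPM with DMSO against 1081, 1187 and 1039.51 with Mi-2 (log2 fold change 0.38 ± 0.09 (SE), adjusted p = 0.0260). VIM, the intermediate filament protein vimentin, rose by 0.46 ± 0.11 (SE), adjusted p = 0.0283, and NPM1, the nucleolar chaperone nucleophosmin, changed by −0.44 ± 0.12 (SE), adjusted p = 0.0474. With 1 library left out at a time, TPT1 was called in 1 of 6 fits (the one without Mi-2 library 3), VIM in none (adjusted p from 0.0518 to 0.0812) and NPM1 in 1 (the one without DMSO library 1). Of 20 genes listed for the control of TOP translation 1 was called (5.00%, against 11.0% of all genes). This was MYC, which acts on transcription and is not itself a controller of TOP translation, and no other gene of the list was called with all 6 libraries. MYC was at 461, 506 and 499.63 CPM with DMSO against 332, 338 and 399 with Mi-2 (log2 fold change −0.46 ± 0.10 (SE), adjusted p = 0.0196). It was called in 2 of 6 fits with a library left out, those without DMSO library 1 and Mi-2 library 3. LARP1 had a log2 fold change of −0.14 ± 0.10 (SE), adjusted p = 0.407.

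Genes that build ribosomes, in contrast to the genes of their proteins, were called lower at shares above the 6.03% of all genes, though the lists were not tested against the members. Of 30 factors of small-subunit assembly 9 were lower, none was higher, and all 30 were below 0, with a median log2 fold change of −0.34. UTP18, of the small-subunit processome, was at 68.8, 75.5 and 63.1 CPM with DMSO against 45.8, 44.4 and 45.6 with Mi-2 (log2 fold change −0.61 ± 0.09 (SE), adjusted p = 0.00495), and RRP7A changed by −0.53 ± 0.09 (SE), adjusted p = 0.00719. Of 32 factors of large-subunit assembly 10 were lower, with a median of −0.27, led by BRIX1 (−0.58 ± 0.10 (SE), adjusted p = 0.00853) and MRTO4 (−0.56 ± 0.10 (SE), adjusted p = 0.0112). Of 15 genes of RNA polymerase I and its factors 5 were lower, with a median of −0.30, led by POLR1G (−0.87 ± 0.09 (SE), adjusted p = 0.00203) and POLR1B (−0.44 ± 0.10 (SE), adjusted p = 0.0254). Of 14 genes listed as carriers of ribosomal proteins, general import receptors such as KPNB1 and IPO7 included, 4 were lower, with a median of −0.27. Among them GRWD1, the carrier of RPL3, was at 295, 288 and 308 CPM with DMSO against 190.46, 203 and 202 with Mi-2 (log2 fold change −0.58 ± 0.08 (SE), adjusted p = 0.00438), while RPL3 itself had a log2 fold change of 0.06 ± 0.12 (SE), adjusted p = 0.786. PDCD2L, the other named by the rule, changed by −0.44 ± 0.12 (SE), adjusted p = 0.0491. Of 9 tested genes of the 5S particle and p53 axis 2 were lower, RRS1, which loads the 5S particle (−0.41 ± 0.08 (SE), adjusted p = 0.0130), and SRSF1 (−0.46 ± 0.10 (SE), adjusted p = 0.0192), beside RPL5 and RPL11 with no call. RRS1 is also counted among the 10 lower factors of large-subunit assembly.

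Mitochondrial ribosomal proteins, a family of like size that works in another compartment, were lower in 9 of 78 and higher in none, with a median of −0.22. Their share of counts was 0.403 to 0.419% with DMSO and 0.346 to 0.365% with Mi-2, without overlap, where that of the cytosolic family overlapped throughout. MRPL12 changed by −0.46 ± 0.08 (SE), adjusted p = 0.0100 and MRPL1 by −0.52 ± 0.13 (SE), adjusted p = 0.0316. The number of genes of these lists called lower differed with the libraries used, as did that over all genes. In place of 6.03%, all genes were called lower at 4.45, 2.37 and 2.53% without DMSO library 1, 2 or 3, and at 1.83, 4.49 and 5.29% without Mi-2 library 1, 2 or 3. For small-subunit assembly the 9 became 3 and 4 on leaving out DMSO library 2 or 3, and 2, 16 and 5 on leaving out Mi-2 library 1, 2 or 3. The 10 of large-subunit assembly became 3 and 5 when DMSO library 2 or 3 was dropped, and 2 and 6 when Mi-2 library 1 or 3 was dropped. The 5 of RNA polymerase I became 2, 1 and 1 on leaving out DMSO library 1, 2 or 3, and 1 and 2 on leaving out Mi-2 library 1 or 3. The 4 carriers became 1 and 2 when DMSO library 2 or 3 was dropped, and 1 when Mi-2 library 1 was. The 2 of the 5S particle and p53 axis became 0 and 1 in the absence of DMSO library 2 or 3, and 0 in the absence of Mi-2 library 1. The 9 mitochondrial ones became 5, 1 and 2 on leaving out DMSO library 1, 2 or 3, and 0 on leaving out Mi-2 library 1. In the same 6 fits no cytosolic ribosomal protein gene was called in either direction. The highest median of the assembly, polymerase, carrier and mitochondrial lists in these fits was −0.17, that of the mitochondrial list when Mi-2 library 1 was dropped.

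Of the genes named from these lists, UTP18, RRP7A, BRIX1, MRTO4, POLR1G and GRWD1 were called in all 6 fits. Without both libraries numbered 3, UTP18, POLR1G, GRWD1 and MRPL12 were called, and RRP7A, BRIX1 and MRTO4 were not. In that fit 2 of 30 small-subunit (6.67%) and 1 of 32 large-subunit assembly factors (3.12%) were lower, against 2.69% of all genes. MRPL12 was lost on leaving out Mi-2 library 1, RRS1 on leaving out that library or DMSO library 2, and SRSF1 also on leaving out DMSO library 3. POLR1B and MRPL1 were called in 2 of the 6 fits, POLR1B in those that dropped DMSO library 1 or Mi-2 library 2 and MRPL1 in those that dropped Mi-2 library 2 or 3. PDCD2L was called in 1, which dropped Mi-2 library 2. On the log2(TPM + 1) scale limma called lower 2 of 30 factors of small-subunit assembly (RRP7A not among them), 5 of 32 of large-subunit assembly, 1 of 15 of RNA polymerase I, 1 of 14 carriers and 5 of 78 mitochondrial ribosomal proteins, against 2.73% of all genes.

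**Figure D5:**
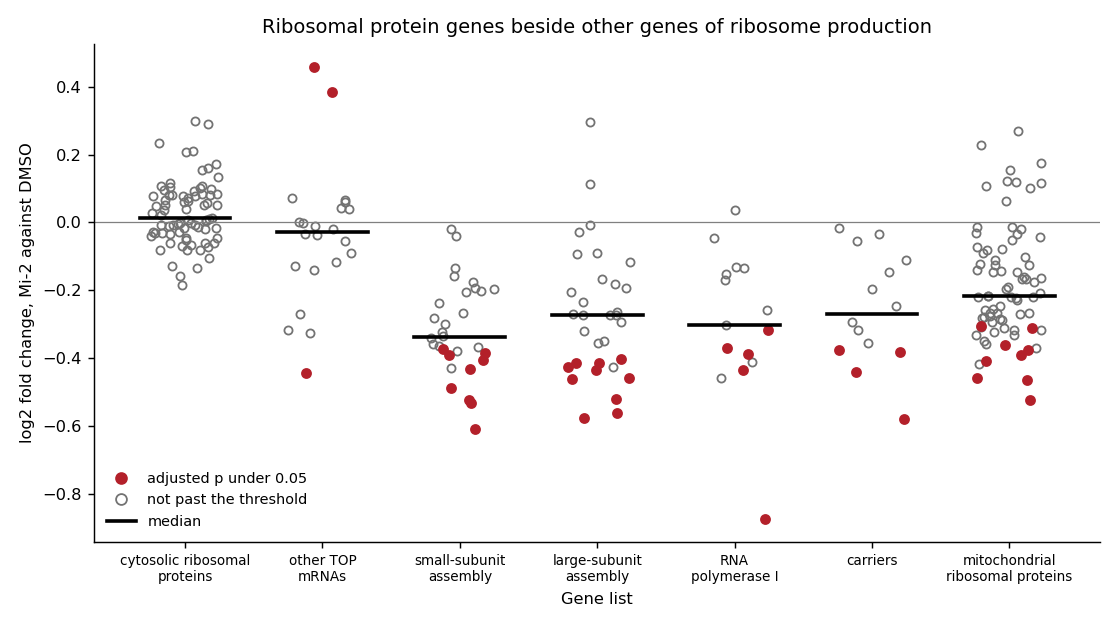
Log2 fold change, Mi-2 against DMSO, of each gene in 7 lists, with the median as a black bar and genes past an adjusted p of 0.05 filled red. The cytosolic ribosomal proteins gather around 0 (median 0.01, none red), while the assembly, polymerase, carrier and mitochondrial lists have medians between −0.22 and −0.34.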

How the data were processed

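RNA-seq was made from H929 cells, 3 libraries with 1 µM Mi-2 and 3 with DMSO, grouped by the treatment in the labels. The submitters' processing notes name fastp 0.19.5, HISAT2 2.1.0, StringTie 2.1.0, RSEM 1.3.3 and GRCh38.p13, without roles. The authors deposited a table of estimated counts per gene, unscaled between libraries, and a table of TPM, corrected for length. Whether counting used strand is not given in the sources used here. Estimated counts split reads between near-identical genes, and 53.7% of the values of ribosomal protein genes are fractional.

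Symbols came from a table for 62625 identifiers and from GENCODE 29 for 72 more. Counts were rounded, filtered with filterByExpr (minimum count 10, minimum total 15), scaled by TMM and compared by edgeR 4.0.16 (quasi-likelihood F test, R 4.3.3) without covariates, with Benjamini-Hochberg adjustment over 16082 genes and a threshold of 0.05. The biological coefficient of variation was 14.2%. The fit was tested on simulated data. Alternatives were DESeq2 1.42.0, limma 3.58.1 on voom and on log2(TPM + 1 or 0.1), other scalings and filters, pseudogene rows added to their gene, a library block and each library left out. Leaving out both libraries numbered 3 was added after seeing the data. Within each group, every pair of libraries differed by more than counting noise, with a chi-square per degree of freedom of 15.0 to 21.1. This does not show that they came from separate cultures.

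The members and lists were chosen with earlier results of these data known. Members named were those with an adjusted p under 0.05, the 4 highest and 4 lowest by TPM, the 2 widest and 2 narrowest in DMSO range and a set list of 16. RPL6, RPL13, RPL32, RPL37, RPS2 and RPS7 were named after their values were seen, as were RPL37A, RPL27A and RPL23A. Of the other lists, FAU, RACK1, the paralogs, EEF1A1, EEF2, TPT1, NACA, BTF3, MYC and LARP1 were set, with up to 2 called genes a direction from each list. One gene of these lists is not reported here.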

Additional observations from a re-analysis of the deposited data

How the results depend on the processing

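The median log2 fold change of the ribosomal protein genes stayed between −0.05 and 0.09 under every alternative, and their share of counts differed by −0.22 to 0.56 percentage points between groups with 1 library left out, beside 0.15 with all. No ribosomal protein gene was called with any library left out. DESeq2 called 1 higher. Of all genes, edgeR called 808 higher and 969 lower. Without a filter on low counts it called 1221 and 1541. On log2(TPM + 1) limma called 229 and 381, on log2(TPM + 0.1) 249 and 398, and with no TPM filter 0 and 0. Without both libraries numbered 3 the numbers were 280 and 434, and with 1 library left out 216 to 715 and 302 to 866. Of the 77 ribosomal protein genes, 50 had the other sign in at least 1 alternative, none of them called there, and 47 did so with 1 library left out. The reported log2 fold changes of these 50 were at most 0.135 in size. The share of all genes that changed sign was not counted. With 3 libraries a group, the 95% interval of the fold reached beyond 1.2-fold for 65 of the 77.

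A replicate block on the library number gave 5 ribosomal protein genes higher (RPL10, RPL37, RPL39, RPS27 and RPS29) and 1 lower (RPL6), with 23.8% of all genes called, 1791 higher and 2035 lower. It also called 2 of the 6 tested paralogs lower. The labels do not say that a number is shared. Deviations of same-numbered libraries correlated at 0.41, 0.06 and 0.26 over genes, beside −0.33 to 0.08 for libraries of different numbers. Over the 77 members the same-numbered values were 0.77, −0.38 and 0.05, beside −0.72 to 0.42 for libraries of different numbers. Over all genes each DMSO library correlated best with the Mi-2 library of its own number, for DMSO library 2 only by 0.059 against 0.057. Mi-2 library 2 correlated slightly better with DMSO library 3 (0.08 over genes) than with DMSO library 2. The numbers were therefore not taken to pair the libraries, though whether a number is shared is not known.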

Other observations

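Rows that share sequence with a ribosomal protein gene held counts in the deposited table. Of 1587 pseudogene rows of the 77 genes, 5 had a mean of at least 5 CPM. All 1587 together took up 0.0773 to 0.110% of counts, and 0.857 to 1.05% of TPM. RPL23AP42, a processed pseudogene of RPL23A on chromosome 3, was at 512, 595 and 673 CPM in the DMSO libraries against 505, 649.57 and 739 CPM in those given Mi-2, above RPL23A itself, which was at 472, 440.45 and 510.42 CPM with DMSO against 425, 444 and 486 with Mi-2. RPL36AP37, on chromosome 11, was at 127, 151 and 176 CPM in the DMSO libraries against 144, 186 and 182 CPM in those given Mi-2, beside 299, 314 and 376 CPM with DMSO against 283, 324 and 348 with Mi-2 for RPL36A. RPS2P5, on chromosome 12, was at 47.9 to 78 CPM. How reads were divided between such near-identical rows cannot be read from the table, so the values of RPL23A and RPL36A are uncertain. With the pseudogene rows added, RPL23A was at 1013, 1065 and 1217 CPM in the DMSO libraries against 954, 1118 and 1255 CPM in those given Mi-2, and its log2 fold change was 0.01 ± 0.12 (SE) in place of −0.07 ± 0.09. That of RPL36A was 0.02 ± 0.12 in place of −0.05 ± 0.12.

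Of 3 read-through genes that begin in a ribosomal protein gene, named here after their values were seen, 1 was called. RPL17-C18orf32 joins RPL17 to its neighbour on chromosome 18 and was at 91.4, 108 and 98.3 CPM in the DMSO libraries against 131, 138 and 126 CPM in those given Mi-2 (edgeR, log2 fold change 0.41 ± 0.09 (SE), adjusted p = 0.0204). All Mi-2 values lay above all DMSO values, while RPL17 was at 1237, 1353 and 1649.58 CPM with DMSO against 1249, 1542 and 1639 with Mi-2 and its groups overlapped. The difference between the 2 genes' changes was not tested. RPS10-NUDT3 was at 11.3 to 32.7 CPM and RPL36A-HNRNPH2 at 4.95 to 13.7 CPM, with no call.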
